A study of Mus musculus with 4 samples.

Results

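The interleukin-1 (IL-1) and tumor necrosis factor (TNF) signals described here are 10 genes chosen by name: the ligands *Il1a*, *Il1b*, *Il18*, *Il33* and *Tnf*, the antagonist *Il1rn*, and the receptor chains *Il1r1*, *Il1rap*, *Tnfrsf1a* and *Tnfrsf1b*. Every non-control probe that the arrays list under one of these names was taken, which gave 13 of 39429 probes and 10 of 29676 gene names. The RNA came from astrocyte-enriched cultures (AECs), which are mixed glial cultures of the cerebral cortex of newborn ICR mice freed of most microglia by PLX3397, which blocks the CSF1 receptor that these cells need to survive. Both groups had received PLX3397. A group of 2 cultures was left untreated, and a group of 2 was kept for 15 h in oxygen–glucose deprivation (OGD), that is, in medium without glucose under hypoxia. The methods describe mixed cultures made from several pups each and wells filled from separate cultures, and the study names oligodendrocytes, and perhaps NG2 glia, as cells that remained beside the astrocytes. In such bulk RNA, fewer cells of a type and less RNA per cell cannot be told apart. Each RNA sample was read on its own one-color array, and the labels do not tie a sample to a culture, so that p-values measure the spread between these samples, which may be partly technical.

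IL-1 alpha and IL-1 beta bind the receptor chain encoded by *Il1r1*, which then recruits the accessory chain encoded by *Il1rap*, and the pair signals through MyD88, IRAK kinases and TRAF6 to NF-kB. IL-18 and IL-33 are members of the same family that use receptors of their own, and IL-33 also needs the accessory chain. TNF binds the receptors encoded by *Tnfrsf1a*, which carries a death domain, and *Tnfrsf1b*, which does not. In the brain, microglia are known as a main source of IL-1 and TNF, and astrocytes as cells that respond to them.

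*Il1rap* is the member whose probes differed from each other, so the first 30 of the 60 bases of its 3 probes are shown, with those of the single probe of *Il1r1*. All 4 lie on the plus strand of mm9, the build named in the headers of the files. The *Il1rap* probe A_52_P467232 (chr16:26701498-26701557) is listed for NM_134103, the RefSeq transcript that is known to code for a soluble form of the accessory chain. The probe A_55_P2041422 (chr16:26716515-26716574) is listed for NM_008364, the transcript of the membrane-bound form, and A_55_P2041432 (chr16:26725291-26725350) for an Ensembl transcript. The *Il1r1* probe A_51_P271503 (chr1:40372667-40372726) is listed for NM_008362. No exon or UTR was assigned, since no annotation of mm9 was used.
Il1rap probe A_52_P467232: gatgttgtcaacgcctttgtttctaaatgt
Il1rap probe A_55_P2041422: catacatctttcagtagtcattggcaaaat
Il1rap probe A_55_P2041432: ccattttctttaaccagctcttccttgatc
Il1r1 probe A_51_P271503: tacttagatttcaccgtactttctgatggt

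The promoters of *Il1rap* and *Il1r1* are shown because these genes changed in opposite directions and because, of the 10 genes, they alone held ACGTG, a form of the core of the site bound by hypoxia-inducible factors. The other form, GCGTG, was not searched and is not marked. RefSeq (GRCm38.p6) gives 14 promoter windows for the 10 genes, each of 250 bases before and 50 bases after a start. ACGTG, searched on both strands, was found in 2 of the 14 windows and in 19.6% of all 32851 windows of this length. TGANTCA, the letters of an AP-1 site, was found in 2 windows, of *Il1a* and *Il1rn*, against 7.81% of all windows. A loose form of the NF-kB site was found in 8 windows of 6 genes, against 50.8% of all windows. None of the matches overlapped a match of another of these motifs. The 250 bases before the start are printed for *Il1rap* (chr16:26581455-26581704) and for the start of *Il1r1* with the match (chr1:40224830-40225079), both on the plus strand, with the match in capitals as CACGT, the same letters on the other strand.
Il1rap promoter: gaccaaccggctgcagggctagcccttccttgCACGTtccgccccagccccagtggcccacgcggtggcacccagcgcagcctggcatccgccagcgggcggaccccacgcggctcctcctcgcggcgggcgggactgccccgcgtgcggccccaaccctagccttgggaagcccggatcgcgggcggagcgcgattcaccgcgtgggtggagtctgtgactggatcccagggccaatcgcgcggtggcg
Il1r1 promoter: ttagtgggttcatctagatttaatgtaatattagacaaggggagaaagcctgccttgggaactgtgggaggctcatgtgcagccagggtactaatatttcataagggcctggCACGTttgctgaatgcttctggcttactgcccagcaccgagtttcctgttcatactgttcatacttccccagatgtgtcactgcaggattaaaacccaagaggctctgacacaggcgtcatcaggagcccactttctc

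The arrays gave the processed signal, an intensity after background subtraction within the array. The share of spots marked well above background was 73.0% to 73.7% without and 64.5% to 66.2% with OGD, and no spot was saturated. The 75th percentile of the signal fell from 2135 and 2164 to 887 and 776, while the 9 spiked-in control probes well above background on all arrays differed by −0.085 on average on the log2 scale. Single spiked-in probes differed by between −0.75 and 0.28, so that small values on the spike-in scale are uncertain. As in the methods, the log2 signal was set against the 75th percentile of its own array, so that a fold change is relative to most other probes. Scaling on the spiked-in probes lowered the median log2 fold change of all tested probes from 0.18 to −1.11, and its values are given beside those of the members and, as counts, beside the gene lists. The 4 arrays shared 1 slide and 1 scan. Fold changes are OGD against untreated, a probe was called at an adjusted p under 0.05 (limma with Benjamini–Hochberg adjustment over all 28254 tested probes), and n is 2 per group throughout.

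The ligands IL-1 alpha, IL-1 beta and TNF and the IL-1 receptor antagonist, the pro-inflammatory core of these families and its natural blocker, could not be measured in these cultures. The probes of *Il1a*, *Il1b*, *Tnf* and *Il1rn* were well above background on 0 of the 4 arrays, as were 25.1% of all probes. These 4 genes have only an upper bound in both groups, and no fold change is given for them.

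The *Il1a* probe (A_52_P100926, NM_010554, minus strand, chr2:129125994-129126053) read 2.02 and 2.91 in untreated cultures and 1.25 and 1.51 after OGD. *Il1b* is read by 10 spots of 1 probe on each array (A_51_P212782, NM_008361, minus strand, chr2:129190347-129190406), and their means were 1.92 and 1.46 in untreated cultures and 1.53 and 2.09 after OGD. Of the 38 *Il1b* spots not marked as outliers, 30 held the surrogate that the software puts in place of the lowest values, and the brightest read 4.78. Both *Il1a* values after OGD were such surrogates too. All values of *Il1a* and *Il1b* lay below the lowest processed signal of any probe that counted as well above background, which was between 6.33 and 7.34 on the 4 arrays. The *Tnf* probe (A_51_P385099, NM_013693, minus strand, chr17:35336795-35336854), also with 10 spots, read 3.29 and 1.55 against 1.65 and 1.74, with surrogates in 26 of 40 spots. The *Il1rn* probe (A_55_P1962400, NM_001039701, chr2:24205094-24205153) read 4.49 and 1.39 against 1.43 and 1.76. In these unscaled signals the groups overlapped for *Tnf* and *Il1rn*, and the spread within the untreated group was wider than the gap between the groups. Whether the groups of these dim probes overlap depends on the scaling, so nothing is read from it.

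**Figure D1:**
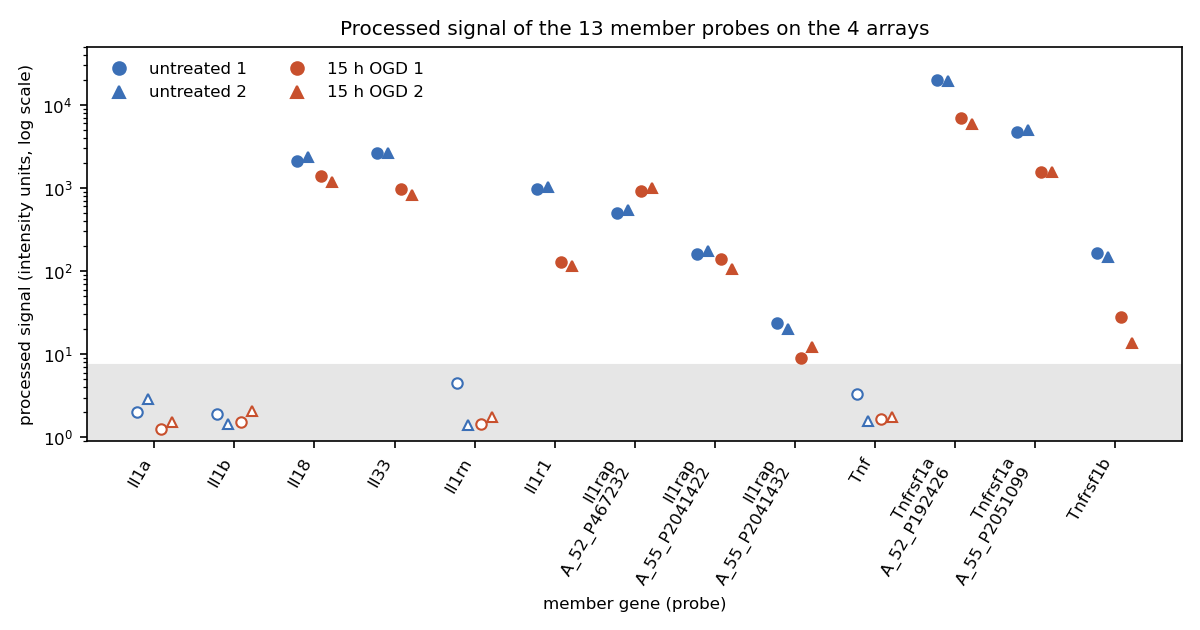
Processed signal (intensity units, log axis) of the 13 probes of the 10 genes on each of the 4 arrays, with untreated arrays in blue and OGD arrays in red. Open symbols are probes not well above background, and the gray band ends at 7.34, the highest of the 4 arrays' lowest signals of a probe well above background. *Il1a*, *Il1b*, *Il1rn* and *Tnf* lie in the band, and levels of different probes are not comparable.

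The other 6 genes were well above background on all 4 arrays with all of their 9 probes. Of these 9 probes, 3 were called higher (2 of *Il1rap*, and *Il18*) and 2 lower (*Il1r1* and *Tnfrsf1b*), while those of *Il33* and *Tnfrsf1a* and the third of *Il1rap* were not called. Over all tested probes, 37.9% were called higher (10708) and 27.1% lower (7646), so the members' shares are near the background. The split was 17755 and 5366 with normexp and 1262 and 23153 on the spike-in scale. With a limit of 2-fold added, 1 member probe was higher (all tested probes 13.9%) and 2 were lower (14.8%). None of the 9 passed the 10-fold limit of the methods (0 higher against 0.811% of all tested probes, 0 lower against 0.524%), and this was so in every alternative scaling and background correction. The untreated and OGD values did not overlap for 8 of the 9 probes, as for 84.7% of all tested probes. With 2 arrays against 2, the exact two-sided permutation test of a single probe cannot go below p = 0.333.

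IL-18 and IL-33 are the family members made ahead of need, IL-18 as a precursor that caspase-1 cleaves and IL-33 as a nuclear protein released from damaged cells. The *Il18* probe (A_66_P105046, NM_008360, chr9:50389761-50389820) had a processed signal of 2135 and 2394 in untreated cultures and of 1388 and 1178 after OGD. The unscaled signal was therefore lower after OGD, but less so than that of most probes. Set against the 75th percentile, *Il18* was 1.46-fold higher (log2 fold change 0.55 ± 0.092 (SE), limma adjusted p = 0.00997), and on the spike-in scale the direction turned (−0.74, limma adjusted p = 0.00382). The call was lost when untreated replicate 1 (limma adjusted p = 0.0785) or untreated replicate 2 (limma adjusted p = 0.0525) was left out. The *Il33* probe (A_55_P1964960, NM_001360725, chr19:30035101-30035160) read 2609 and 2657 in untreated cultures and 983 and 823 after OGD. Its log2 fold change of −0.18 ± 0.078 was not called (limma adjusted p = 0.117), with a 95% interval from −0.40 to 0.042. *Il33* was called lower on the spike-in scale (−1.46) and with the 75th percentile over bright probes (−0.33, limma adjusted p = 0.0255).

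The receptor for IL-1 itself fell. *Il1r1*, the chain that binds IL-1 alpha and IL-1 beta, had a processed signal of 983 and 1019 in untreated cultures and of 128 and 116 after OGD, 2 pairs of values far apart from each other and close within. After scaling it was 3.17-fold lower (log2 fold change −1.66 ± 0.077, 95% interval −1.88 to −1.45, limma adjusted p = 0.000862). It was lower and called in every alternative tried, between −1.24 with normexp and −2.95 on the spike-in scale. Its log2 fold change was higher than that of only 6.86% of the tested probes.

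The accessory chain rose at 2 of its 3 probes, by unequal amounts. The probe A_52_P467232, listed for the soluble form, read 502 and 537 in untreated cultures and 924 and 1001 after OGD, so that it was higher even before scaling. After scaling it was 4.80-fold higher (log2 fold change 2.26 ± 0.14, limma adjusted p = 0.0012), and it was the only member probe called higher on the spike-in scale (0.97). Its log2 fold change exceeded that of 97.6% of the tested probes. The probe A_55_P2041422, listed for the membrane-bound form, read 160 and 174 against 141 and 107. It was 1.91-fold higher after scaling (0.93 ± 0.11, limma adjusted p = 0.00419), and −0.35 and not called on the spike-in scale (limma adjusted p = 0.0633). The probe A_55_P2041432, at 23.6 and 20.3 against 8.93 and 12.1, was close to background and was not called (0.30 ± 0.25, limma adjusted p = 0.355). On the spike-in scale it was called lower (−0.99, limma adjusted p = 0.0093). Its scaled values overlapped between the groups, and its value moved to −0.016 without OGD replicate 2, to 0.61 with a call without OGD replicate 1, and to 1.02 with a call under normexp.

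Within each array the probes of 1 gene can be set against each other, which removes the scaling between arrays. The log2 signal of A_52_P467232 minus that of A_55_P2041422 was 1.65 and 1.62 without and 2.71 and 3.22 with OGD. The change of 1.33 ± 0.20 passed the test over all 7639 pairs of probes of one gene (limma adjusted p = 0.00516), as 48.9% of those pairs did, and 27.0% did so with over 2-fold. Against A_55_P2041432, the same probe changed by 1.97 ± 0.18 more (limma adjusted p = 0.00118). The remaining pair, A_55_P2041422 against A_55_P2041432, differed by 0.64 ± 0.31 and was not called (limma adjusted p = 0.155). The 3 *Il1rap* probes thus ranked in their order along the plus strand, with the most upstream rising most. Such an order was common on these arrays: among 4429 pairs of probes of one gene more than 2000 bases apart in mm9, the upstream probe changed by more in 75.7%, with a median difference of 0.51, and 23.3% of the pairs exceeded 1.33 in that direction. The part of probe position in the *Il1rap* values was not tested.

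**Figure D2:**
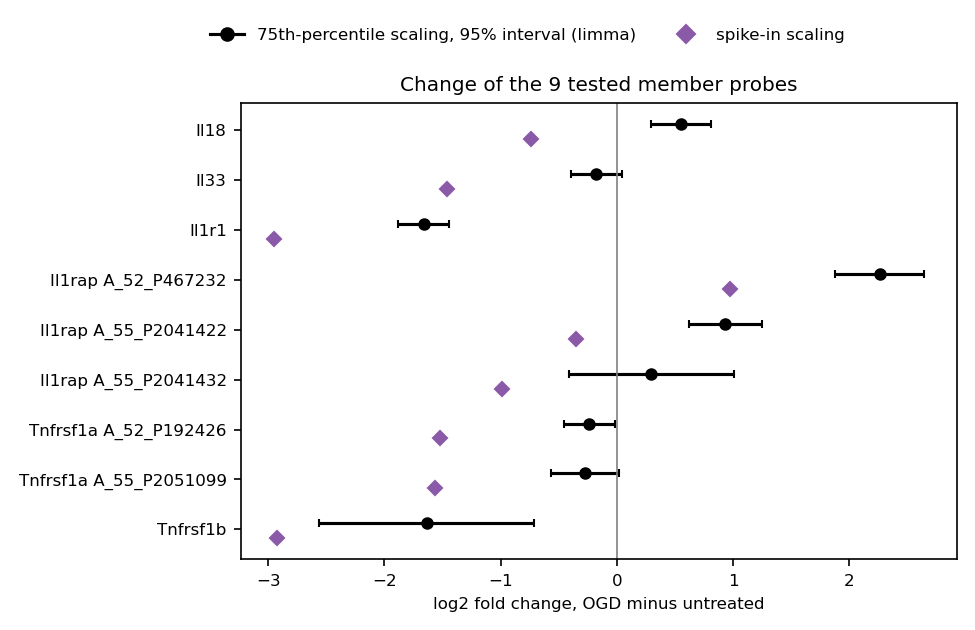
Log2 fold change, OGD minus untreated, of the 9 tested probes, with its 95% interval after 75th-percentile scaling (black) and as a value after spike-in scaling (purple). *Il1r1* and *Tnfrsf1b* lie left of 0 under both, the *Il1rap* probe A_52_P467232 lies right of 0 under both, and *Il18* and the other 2 *Il1rap* probes change side.

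Of the TNF receptors *Tnfrsf1b* was called lower and *Tnfrsf1a* was not, and the difference between them was not tested. *Tnfrsf1a*, the death-domain receptor found on most cells, was read by 2 probes for NM_011609. A_52_P192426 (chr6:125312376-125312435, 10 spots) had a processed signal of 20006 and 19362 in untreated cultures and of 6980 and 5965 after OGD, and A_55_P2051099 (chr6:125311922-125311981) read 4686 and 4988 against 1544 and 1540. Both unscaled signals were clearly lower after OGD, by about as much as the 75th percentile was. After scaling the log2 fold changes were −0.24 ± 0.079 (limma adjusted p = 0.0623) and −0.28 ± 0.10 (limma adjusted p = 0.0826), neither of them called. Both were called lower with quantile normalization (−0.64 and −0.36), normexp (−0.30 and −0.36), limma with a trend and robust prior (unchanged values), the 75th percentile over bright probes (−0.39 and −0.43) and the spike-in scale (−1.52 and −1.56). A stricter filter on dim probes called A_52_P192426 and not the other probe (limma adjusted p = 0.0463), and without OGD replicate 2 A_55_P2051099 was called (−0.37, limma adjusted p = 0.0379) and A_52_P192426 was not. The change of A_52_P192426 minus that of A_55_P2051099, which lies upstream, was 0.040 ± 0.13 (limma adjusted p = 0.827), with a 95% interval from −0.31 to 0.39. *Tnfrsf1b*, the receptor without a death domain, was read by 1 probe (A_55_P2033445, NM_011610, minus strand, chr4:144802359-144802418) at 166 and 149 in untreated cultures and at 28.1 and 13.5 after OGD. It was 3.11-fold lower (log2 fold change −1.64 ± 0.33, 95% interval −2.56 to −0.72, limma adjusted p = 0.0161), and the OGD values lay far apart. On the spike-in scale it was at −2.93. This call was lost with normexp (−0.21, limma adjusted p = 0.0909), with the methods' t-test, and without untreated replicate 1 (limma adjusted p = 0.0799) or 2 (limma adjusted p = 0.0688).

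**Figure D3:**
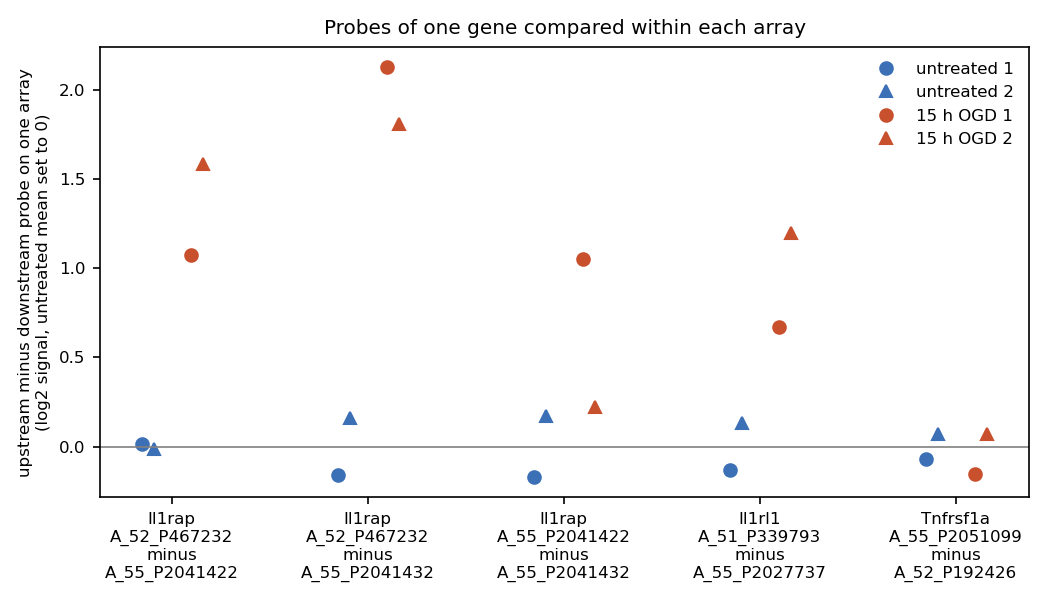
Log2 signal of the upstream minus the downstream probe of 1 gene on each array, with the mean of the untreated arrays set to 0 (blue untreated, red OGD). The *Il1rap* probe A_52_P467232 rose by 1.33 and 1.97 against the other *Il1rap* probes and the *Il1rl1* probe A_51_P339793 by 0.93 against its partner, while the *Tnfrsf1a* pair changed by −0.040, not called.

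The other receptors of the IL-1 family are *Il1r2*, a decoy that binds IL-1 without signaling, *Il1rl1*, the IL-33 receptor ST2, the IL-18 receptor chains, the IL-36 receptor *Il1rl2*, the inhibitory *Sigirr*, and the *Il1rapl* genes. Of these 8 genes 5 were tested, each by its brightest probe, of which 2 were called higher and 1 lower, with a median log2 fold change of −0.036. On the spike-in scale the counts were 1 and 4. The brightest *Il1rapl1* probe was not called (−0.24), its other 2 probes were called higher (1.25 and 1.04), and 3 genes were higher with the mean over a gene's probes. The other 2 *Il1rapl1* probes were close to background, and on the spike-in scale they were at −0.034 and −0.25, not called. Without OGD replicate 1 or either untreated replicate 1 gene was higher, and with normexp 5 were. Over all 21061 tested genes 37.1% were called higher and 27.8% lower, and the median was 0.16. *Il1rl1* rose 5.56-fold at A_51_P339793 (chr1:40504769-40504828), listed for NM_010743, the transcript known to code for soluble ST2. It read 66.5 and 68.4 in untreated cultures and 133 and 157 after OGD, a log2 fold change of 2.47 ± 0.17 that was also called on the spike-in scale (1.19). A downstream probe listed for NM_001025602, the transcript of membrane-bound ST2, was called as well (A_55_P2027737, 1.54 ± 0.12, but 0.25 and not called on the spike-in scale), and another probe of that transcript was not well above background on any array. The upstream probe rose more by 0.93 ± 0.22 (limma adjusted p = 0.0225 over all pairs). As for *Il1rap*, the part of probe position was not tested. *Il1r2* rose slightly (0.35 ± 0.088), a call lost with 3 other scalings and turned to −0.94 on the spike-in scale. The single lower gene, *Il18rap*, was chosen after its values were seen: it read 16.7 and 12.8 in untreated cultures and was not well above background after OGD, and no fold is given, since the bright signal did not exceed the limit of detection after scaling. With normexp *Il18rap* turned to 1.01 and was called higher, so that its direction is not settled. It passed the filter on dim probes through the untreated arrays alone, so its call is no support for the count. *Il18r1*, the chain that binds IL-18, *Il1rl2* and *Il1rapl2* were not well above background on any array.

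Among the other ligands and antagonists of the IL-1 family, 1 of 6 genes was tested. This was *Il18bp*, the secreted protein that neutralizes IL-18, which rose (0.64 ± 0.11, turned to −0.64 on the spike-in scale), a call lost with the methods' t-test and without untreated replicate 1 or 2. The IL-36 ligands *Il36a*, *Il36b* and *Il36g* and the antagonist *Il36rn* were not well above background on any array.

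The machinery that processes and releases IL-1 held called genes in both directions, at shares near those of all tested genes. Of 17 genes 14 were tested, with 5 called higher (all tested genes 37.1%), 4 lower (27.8%) and a median of 0.19 (0.16). On the spike-in scale 0 were higher and 14 lower, where 91.8% of all tested probes had a negative log2 fold change. The number of higher genes was 1 without untreated replicate 1 or 2, 2 with the methods' t-test and 3 with quantile normalization or the 75th percentile over bright probes, and 2 were lower without untreated replicate 1. *P2rx7*, the ATP-gated channel that triggers inflammasomes, fell most (log2 fold change −2.57 ± 0.084), although the probes of this gene ranged up to 0.73. *Casp1*, the protease that cleaves the precursors of IL-1 beta and IL-18, fell by 1.25 ± 0.093 on the log2 scale, and *Casp4*, which senses intracellular lipopolysaccharide, by 0.64 ± 0.083. These 3 genes kept their direction and call under every scaling. *Mefv*, the gene of pyrin (0.87 ± 0.13), *Gsdmd*, the pore-forming gasdermin D (0.55 ± 0.089), and *Capn2*, the protease calpain-2 (0.54 ± 0.078), rose, and all 3 turned on the spike-in scale, *Capn2* also with quantile normalization. The inflammasome sensors *Nlrp1b*, *Nlrc4* and *Aim2* were not well above background on any array.

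All 19 genes of the signaling chain below the IL-1 receptor were tested. Of them 6 were called higher (all tested genes 37.1%) and 6 lower (27.8%), with a median of 0.20 (0.16). *Myd88*, the adaptor of the receptor complex, fell by 1.22 ± 0.083 on the log2 scale. *Tab1*, a partner of the kinase TAK1 (−1.79 ± 0.084), and *Map3k8*, the kinase Tpl2 (−1.69 ± 0.094, or −0.90 with normexp), fell as well, and none of the 3 turned under any scaling. The ubiquitin ligase *Traf6* (1.36 ± 0.090), the TRAF6-binding *Ecsit* (1.07 ± 0.082) and *Tollip*, an inhibitor of IRAK signaling (0.89 ± 0.088), rose, but on the spike-in scale *Traf6* (0.070) and *Ecsit* (−0.22) were not called and *Tollip* was lower (−0.40). On that scale 0 genes of this list were higher and 17 lower.

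On the TNF side, ADAM17 is the protease that sheds TNF and its receptors. The counts below stand beside 37.1% higher and 27.8% lower over all tested genes. Of 5 genes around this step 2 were called higher, *Adam17* (0.43 ± 0.099) and its inhibitor *Timp3* (0.74 ± 0.11), and 1 lower, *Rhbdf2* (−0.51 ± 0.11), which carries ADAM17 to the cell surface. The median was 0.031, all 5 were lower on the spike-in scale, *Timp3* also turned with quantile normalization, another *Adam17* probe was at −0.059, the *Adam17* call was lost with the 75th percentile over bright probes, and *Rhbdf2* lost its call with normexp (−0.0048). With the methods' t-test 0 of the 5 were called in either direction, and without untreated replicate 2 likewise 0.

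Of 17 other TNF superfamily ligands, 16 were on the array and 12 were tested, with 5 called higher and 6 lower, against 4 and 8 on the spike-in scale, and with 3 lower with normexp or the methods' t-test. The median was −0.42, or −0.039 with the 3 genes that have only a bound entered at it. Over all tested genes 37.1% were called higher and 27.8% lower. Of the 6 lower, *Tnfsf10* and *Tnfsf13b* were not well above background after OGD, so that no fold is given, and with normexp they turned to 0.95 and 0.98. These 2 genes passed the filter on dim probes through the untreated arrays alone, so their places among the lower genes on either scale are no support for those counts. *Tnfsf9*, the ligand of 4-1BB, rose from 372 and 365 to 692 and 593 in processed signal (log2 fold change 2.17 ± 0.076), and *Lta*, lymphotoxin alpha, which also binds both TNF receptors, rose from 75.7 and 76.7 to 120 and 103 (1.92 ± 0.075). Both were higher under every scaling, the spike-in scale included (0.88 and 0.63). *Tnfsf12*, the ligand TWEAK, was 0.63 ± 0.12 and turned on the spike-in scale. *Cd70* (−2.10 ± 0.16) and *Tnfsf15*, the ligand of the receptor DR3 (−1.39 ± 0.19), fell under every scaling, *Tnfsf15* by far less with normexp (−0.34). *Eda* fell by 0.47 ± 0.099 at its brightest probe (−0.29 with normexp), while its other probe was at 0.81. *Fasl*, the ligand of the death receptor Fas, was chosen after its values were seen: it was not well above background in untreated cultures (3.75 and 3.67) and read 32.4 and 34.3 after OGD, at least 12.7-fold higher by the bound that the limit of detection sets under 75th-percentile scaling. It passed the filter on dim probes through the OGD arrays alone, so its place among the 5 higher genes is no support for them. The fitted log2 fold change was 3.25 on the spike-in scale and 1.79 with normexp, both below that bound.

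Among the 26 other receptors of the TNF superfamily, 23 were tested, with 12 called higher, 5 lower and a median of 0.47, against 3 higher and 17 lower on the spike-in scale. Over all tested genes 37.1% were called higher and 27.8% lower, and the median was 0.16. Without untreated replicate 1 or 2, or with the methods' t-test, 2 were lower. Of the 5 lower, *Tnfrsf18*, named after its values were seen, turned with normexp (0.59). *Tnfrsf12a*, the TWEAK receptor Fn14, rose from 45495 and 45186 to 62915 and 54445 in processed signal (1.74 ± 0.075), and was higher on the spike-in scale too (0.45). *Relt* (1.69 ± 0.12) and *Eda2r*, the receptor of an ectodysplasin (1.88 ± 0.10), were likewise called under both scalings, but another *Eda2r* probe was at −0.71. *Tnfrsf25*, a death-domain receptor known as DR3, fell by 2.99 ± 0.080 (−0.81 with normexp), with an OGD signal of 12.3 and 11 that is close to background. *Tnfrsf19* fell by 1.31 ± 0.093, with its other probe at −0.086, and *Tnfrsf21*, the receptor DR6, by 0.38 ± 0.091, the last with no call under median scaling.

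All 29 genes that carry or restrain signals below the TNF receptors were tested. More were called lower (12) than higher (5), the median was −0.14, and on the spike-in scale 26 were lower and 1 higher. Over all tested genes 27.8% were called lower and 37.1% higher, with a median of 0.16. On the spike-in scale 91.8% of all tested probes had a negative log2 fold change. Without untreated replicate 1 or 2, 6 were lower and 3 higher. The gene higher on the spike-in scale was *Tnfaip3*, the ubiquitin-editing enzyme A20 that shuts off NF-kB signaling, which rose from 598 and 618 to 4072 and 3951 in processed signal (17.1-fold, log2 fold change 4.09 ± 0.092, limma adjusted p = 0.000729). *Tnip2*, an A20-binding inhibitor (1.14 ± 0.19), and *Madd*, which binds the death domain of TNF receptor 1 (1.05 ± 0.078), rose, with no call on the spike-in scale (−0.15 and −0.23). *Fadd*, the adaptor that recruits caspase-8 (−1.55 ± 0.081), the deubiquitinase *Cyld* (−1.79 ± 0.077) and *Birc2*, the ubiquitin ligase cIAP1 (−1.05 ± 0.12), fell under every scaling, although a dimmer *Cyld* probe was at 0.66 and a dimmer *Birc2* probe at 0.032.

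Genes that IL-1 and TNF are known to induce were more often higher than lower under 75th-percentile scaling. On the spike-in scale, where most tested probes were lower, they were more often lower than higher. Of 34 such genes 29 were tested, with 20 called higher, 3 lower and a median of 0.91, beside 37.1% higher, 27.8% lower and a median of 0.16 over all tested genes. On the spike-in scale 10 were higher and 16 lower, with a median of −0.38. Over all 28254 tested probes 1262 were called higher on that scale, 91.8% had a negative log2 fold change, and the median was −1.11. *Il6*, an inflammatory cytokine, rose from 94.2 and 81.8 to 1072 and 1129 in processed signal (32.5-fold, 5.02 ± 0.15). *Ptgs2*, the inducible cyclooxygenase, rose from 369 and 361 to 3896 and 3800 (27.3-fold, 4.77 ± 0.094), and *Ccl7*, a chemokine that attracts monocytes, from 306 and 298 to 1773 and 2019 (16.2-fold, 4.02 ± 0.16). These 3 were at 2.73 or more on the spike-in scale. The chemokine *Cxcl2*, named after its values were seen, was not well above background in untreated cultures (2.01 and 3.09) and read 80.8 and 84.4 after OGD, at least 31.4-fold higher under 75th-percentile scaling. Its fitted log2 fold change was 5.14 on the spike-in scale and 2.46 with normexp, and the latter lies below that bound. The transcription factors *Bcl3* (−0.81 ± 0.14) and *Irf1* (−0.81 ± 0.094) were lower under every scaling. The third lower gene, *Zc3h12a*, named after its values were seen, was not well above background after OGD and turned to 0.83 with a call under normexp. *Cxcl2* and *Csf2* passed the filter on dim probes through the OGD arrays alone, and *Zc3h12a* through the untreated arrays alone, so their calls are no support for the counts. The study had itself picked *Ptgs2*, *Tnfaip3* and *Csf2* from these arrays, so that their direction here is not independent evidence. Other stimuli induce these genes too, and whether IL-1 or TNF took part was not tested.

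**Figure D4:**
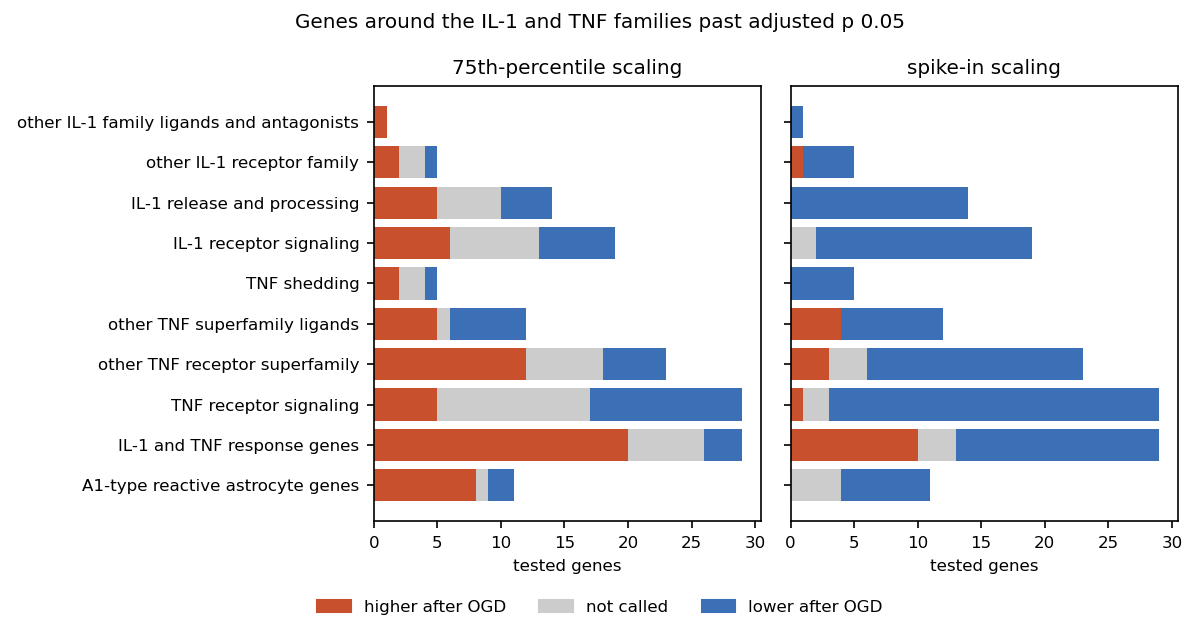
Number of tested genes called higher (red), called lower (blue) or not called (gray) in each list around the IL-1 and TNF families, with 75th-percentile scaling (left) and spike-in scaling (right). The response genes held 20 higher and 3 lower genes on the left and 10 higher and 16 lower on the right, and the list of TNF receptor signaling 5 higher and 12 lower on the left and 1 higher and 26 lower on the right.

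IL-1 alpha and TNF, together with C1q, are known to turn astrocytes into the reactive type called A1. Of 12 genes of that type 11 were on the array and tested, with 8 called higher and 2 lower and a median of 0.73. Over all tested genes 37.1% were called higher and 27.8% lower, and the median was 0.16. On the spike-in scale 91.8% of all tested probes had a negative log2 fold change. *Serping1*, an inhibitor of complement C1 (1.22 ± 0.084), *Fbln5*, an extracellular matrix protein (1.28 ± 0.092), and *Srgn*, a proteoglycan core (1.12 ± 0.076), rose, and none of the 3 was called on the spike-in scale (−0.071, −0.0046 and −0.17), where 0 genes of the list were higher and 7 lower. *Ggta1*, a galactosyltransferase, fell by 1.51 ± 0.080 under 75th-percentile scaling and was lower under every other scaling, but with normexp it was at −0.42. The interferon-inducible *Iigp1* fell by 0.99 ± 0.10, but with normexp it was at 0.30.

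The markers of the cells present moved beside these results. Their counts, here and in the next paragraph, stand beside 37.1% higher and 27.8% lower over all tested genes. Of 15 astrocyte markers 15 were tested, with 8 called higher and 2 lower, and their summed processed signal was between 390194 and 431331 in untreated cultures and between 218705 and 249254 after OGD. The brightest were *Aldoc* (0.70 ± 0.22, not called) and *Aldh1l1* (0.44 ± 0.080), and *Ndrg2* (1.29 ± 0.092) and *Sox9* (−1.52 ± 0.082) changed most. Another *Aldh1l1* probe was at −2.50. Of 22 microglia markers 19 were tested, with 6 higher and 4 lower, and their summed signal was between 19814 and 21925 against 11925 and 14138. Some defining markers are named outside the rule. *Spi1* and *Laptm5* were not well above background on any array, while *Aif1*, the gene of Iba-1, read 55.6 and 55 in untreated cultures and 46.8 and 40.7 after OGD. Scaled, *Aif1* was called higher (1.03 ± 0.075, limma adjusted p = 0.0016), as was *Csf1r*, the receptor that PLX3397 blocks (1.14 ± 0.098), and neither was called on the spike-in scale (−0.26 and −0.15). Others were not called: *P2ry12* (0.18), *Tyrobp* (0.45), *Fcer1g* (0.29), *Ptprc* (0.36), *Itgam* (0.023), *Cx3cr1* (−0.29), *C1qc* (−0.38) and *Cd14* (−0.15). *Siglech* (−0.23 ± 0.13, not called, with another probe at 0.90) was among the 2 brightest, and the lysosomal genes *Cd68* (3.14 ± 0.076) and *Ctss* (1.42 ± 0.38) changed most. The 4 lower genes, named after their values were seen, were *Tmem119*, *Trem2*, *Gpr34* and *Mrc1*, and the last 3 were at background on some arrays. These last 3 passed the filter on dim probes through the untreated arrays alone, so their calls are no support for the count. All 4 turned with normexp (0.18, 0.67, 1.05 and 1.08), the last 3 with a call. The part of residual microglia in the member values was not tested.

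Oligodendrocyte markers were called higher in 4 and lower in 3 of 12 tested genes, with *Olig2* (−2.50 ± 0.086), *Olig1* (−0.49 ± 0.091) and *Ermn* (1.21 ± 0.20) named by the rule, and their summed signal was between 78624 and 82899 in untreated cultures and between 35374 and 38869 after OGD. The third lower gene, *Sox10*, named after its values were seen, read 7.50 and 6.64 after OGD, near the limit of detection. With normexp *Sox10* turned from −0.76 to 0.83 with a call. NG2 glia markers were higher in 3 and lower in 1 of 6, with *Pdgfra* at −1.27 ± 0.22 (−0.34 with normexp), *Ptprz1* at 0.95 ± 0.077 and *C1ql1* at −0.15 ± 0.095 (summed signal between 43638 and 44174 against 29540 and 34429). Neuron markers were higher in 5 and lower in 2 of 11, with *Nefl* at 1.95 ± 0.093, *Gad1* at 1.32 ± 0.088, *Map2* at 0.30 ± 0.079 and *Stmn2* at 0.13 ± 0.11 (summed signal between 64471 and 67932 against 27738 and 28895). Of the 2 lower, *Rbfox3*, named after its values were seen, read 27.5 and 25.1 in untreated cultures and was not well above background after OGD. It passed the filter on dim probes through the untreated arrays alone, so its call is no support for the count. With normexp *Rbfox3* turned to 0.90 with a call. Meningeal fibroblast markers were higher in 3 and lower in 2 of 9, with *Pdgfrb* at −2.42 ± 0.087, *Ogn* at 1.29 ± 0.075 and *Col1a2* at −0.14 ± 0.17 (summed signal between 55752 and 63814 against 27243 and 29088). Endothelial markers, of cells known to carry IL-1 and TNF receptors, were higher in 0 and lower in 3 of 5, with *Vwf* at −1.16 ± 0.15, *Esam* at −0.65 ± 0.14, *Kdr* at −0.40 ± 0.089 and *Cdh5* at 0.27 ± 0.13. With normexp *Vwf* (−0.17) and *Esam* (0.18) were not called, *Kdr* lost its call under median scaling, another *Kdr* probe was at 1.11 and another *Vwf* probe at −0.14. *Cldn5*, *Tek*, *Tie1*, *Flt4* and *Emcn* were not well above background on any array (summed signal between 3913 and 4140 against 1075 and 1339). On the spike-in scale 0 astrocyte, oligodendrocyte, NG2 glia, fibroblast and endothelial markers were higher and 11, 10, 6, 7 and 5 lower, with 1 microglia marker higher and 15 lower and 1 neuron marker higher and 8 lower. Of the markers named as higher, *Ndrg2* (0.0025), *Ctss* (0.13), *Ermn* (−0.079), *Ogn* (−0.0031) and *Gad1* (0.028) were then not called, and *Aldh1l1* (−0.85), *Ptprz1* (−0.34) and *Map2* (−0.99) were lower. *Map2* also lost its call under 3 other scalings, *Ptprz1* lost it with quantile normalization, and *Aldh1l1* turned with it. Without untreated replicate 2 the counts of higher and lower genes were 5 and 1 for astrocyte, 5 and 1 for microglia, 3 and 2 for oligodendrocyte, 2 and 0 for NG2 glia, 3 and 0 for neuron, 3 and 1 for fibroblast and 0 and 1 for endothelial markers, and without untreated replicate 1 they differed from these by at most 1 gene. The part of these cell types in the receptor values was not tested.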

How the data were processed

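Total RNA of 4 AEC samples was amplified, labeled with Cy3 and hybridized to one-color mouse arrays, and the images were processed by the authors with Agilent Feature Extraction (11.5.1.1 in the submitters' processing notes). The deposited intensity is the processed signal, with background subtracted within each array, low values replaced by a surrogate and no normalization between arrays. The authors' series table holds the same values (largest difference 0). In the methods, arrays were scaled to the 75th percentile and an unpaired test was adjusted by Benjamini–Hochberg, with limits of 0.05 for p and 10 for fold. Gene names are as printed on the array, and probe positions are on mm9.

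The deposited intensity was put on the log2 scale without control and outlier spots, replicate spots were averaged per probe, and the array's 75th percentile (non-control probes) was subtracted. A fraction of 0.5 or more of a probe's spots had to carry the mark well above background for the probe to count so. A probe entered the test if both arrays of either group met this. The fit used limma (3.58.1, lmFit and eBayes, under R 4.3.3), with errors given as SE. A gene of a list was represented by its brightest tested probe (mean over the 4 arrays). Where a group was dim on both arrays, the bright group's mean was set against the dim group's mean of, per array, the lowest signal of a probe well above background or the probe's own signal, whichever was higher. Python 3.11.15 (pandas 2.3.3, matplotlib 3.10.9, scipy 1.17.1, numpy 2.4.6) gave the tables and plots. The fit was tested on simulated data. The number of arrays limits the precision.

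The members, the gene lists, the tests and the alternatives were chosen with earlier results of these data known. The rule named all 10 genes with every probe, up to 3 called genes in each direction from each pathway list among probes well above background on all 4 arrays, and from each marker list the 2 brightest and the 2 most changed genes, of which 1 is not reported here. The lists covered other IL-1 family ligands and receptors, IL-1 release, IL-1 receptor signaling, TNF shedding, other TNF superfamily ligands and receptors, TNF receptor signaling, response genes, A1-type genes and markers of endothelium, meningeal fibroblasts, neurons, NG2 glia, oligodendrocytes, microglia and astrocytes. Alternatives to the scaling were normexp (offset 50), spike-in, median and quantile scaling, and a 75th percentile over bright probes. Alternatives to the test were limma with trend and robust prior, a replicate block, the methods' t-test, and fold limits of 2 and 10. The others were a stricter or no filter, outlier spots kept, the series table, leaving out each array, and the mean over a gene's probes. The tests of probe pairs and of their position were added after seeing the data. Promoters are RefSeq's (GRCm38.p6), and their coordinates were not mixed with those of mm9.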

Additional observations from a re-analysis of the deposited data

How the results depend on the processing

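The changes of *Il1r1* and of the *Il1rap* probe A_52_P467232 kept their direction and their call in all settings tried, and the other member calls did not. With scaling on the spiked-in probes *Il18* turned to −0.74, the *Il1rap* probes A_55_P2041422 and A_55_P2041432 to −0.35 and −0.99, 1 member probe was called higher and 7 lower, and over all tested probes 1262 were higher and 23153 lower (10708 and 7646 with the 75th percentile). Of the listed genes, 21 were higher and 177 lower on that scale, against 95 and 57. Normexp raised the number of higher probes to 17755. The number of lower member probes, 2 in the main setting, was 5 where the 75th percentile was taken over bright probes only, 4 with limma trend and robust prior, 4 with quantile normalization and 1 with the methods' t-test, which left 33 listed genes lower. With a 2-fold limit 3938 probes were higher and 4170 lower, with 1 member probe higher, and with the 10-fold limit 229 and 148, with 0 member probes in either direction. The median log2 fold change of all tested probes was 0.18 in the main setting, 0.55 with normexp, 0.012 with quantile normalization and 0.025 with the percentile over bright probes only. The cause of these shifts was not tested.

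Leaving out each array in turn gave between 5879 and 11023 higher and between 4825 and 8142 lower probes. Of the listed genes, between 63 and 93 were higher and between 30 and 57 lower, and of the member probes between 1 and 3 were lower. The low numbers all came without an untreated array, where the lone array is assumed to vary like the OGD arrays, and *Il18* and *Tnfrsf1b* then lost their calls. The *Il1rap* probe A_55_P2041432 ranged from −0.016 to 0.61.

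The labels number the samples of both groups alike, but same-numbered samples did not deviate together (r = −0.057 across probes), so the numbers are not taken to pair the samples. With the replicate number as a block, 9919 probes were higher and 7288 lower, and no call of a member probe changed.

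Signal over background limits *Il1a*, *Il1b*, *Il1rn* and *Tnf* to an upper bound, and the dimmest *Il1rap* probe and *Tnfrsf1b* after OGD lie close to that limit.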
